A study of Mus musculus with 28 samples.

Results

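The miR-10, miR-99/100 and miR-125 families were followed in extracellular vesicles (EVs) isolated from mouse plasma. The 8 members were mmu-miR-10a-5p, mmu-miR-10b-5p, mmu-mir-10a, mmu-miR-99a-5p, mmu-miR-99b-5p, mmu-miR-100-5p, mmu-miR-125a-5p and mmu-miR-125b-5p. They were chosen by family name and by their measured read levels in these libraries, with earlier results of these data known. Other entries of these families with fewer reads, such as mir-10b with 85 in all, were not made members. The count table held 1240 miRNA entries, of which 129 had enough reads to be tested. All 8 members were among these 129, which is no independent finding because read levels guided the choice. Entries written mir in lower case are precursor hairpins, and entries ending in 5p are mature arms.

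Each of the 28 libraries came from 1 mouse aged 2 months. There were 8 KlHET NMES, 8 KlHET control, 6 WT NMES and 6 WT control libraries. KlHET mice carried 1 disrupted copy of Kl (B6;129S5-Kl tm1Lex/Mmucd), the gene of the hormone Klotho, and WT mice carried none. Neuromuscular electrical stimulation (NMES) was applied to both legs at 9 mA in 5 sessions, on every other day, under 2.5% isoflurane. Control mice received the same gas for 15 min on those days without stimulation, so anesthesia was common to all 4 groups. Blood was taken 24 h after the last session. The names of all KlHET libraries begin with J and those of all WT libraries begin with A, so anything else that differed between those sets cannot be told apart from genotype. Kl mRNA is not measured by these small RNA libraries, and the genotype labels were not checked here.

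The miR-10 genes lie inside Hox clusters, whose homeobox genes pattern the body axis, and miR-10 is known to repress Hox mRNAs. miR-99 and miR-100 are related to miR-10 in sequence and are known to repress the mTOR kinase. miR-125, the vertebrate relative of worm lin-4, is encoded near miR-99 or miR-100 and a let-7 miRNA in clusters, and is known for roles in blood cell differentiation. A mature miRNA finds its targets mainly through the seed, its bases 2 to 8, so miRNAs with the same seed share many predicted targets.

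The mature sequences are shown because the results turn on miRNAs that differ at few bases. They are from RefSeq for GRCm38.p6, 5′ to 3′, with the seed in capitals, and all 7 mature members matched.
miR-10a-5p: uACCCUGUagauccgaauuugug
miR-10b-5p: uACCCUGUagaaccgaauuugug
miR-99a-5p: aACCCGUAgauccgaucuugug
miR-99b-5p: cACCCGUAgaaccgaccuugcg
miR-100-5p: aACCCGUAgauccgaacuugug
miR-125a-5p: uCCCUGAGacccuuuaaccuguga
miR-125b-5p: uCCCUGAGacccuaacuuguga

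The members fell into 3 seed groups, ACCCUGU in miR-10a-5p and miR-10b-5p, ACCCGUA in miR-99a-5p, miR-99b-5p and miR-100-5p, and CCCUGAG in the miR-125 pair. Counting positions from 1 at the 5′ end and giving the base of the first-named miRNA first, miR-10a-5p and miR-10b-5p differ only by U12A, and miR-99a-5p and miR-100-5p differ only by U16A. miR-99a-5p and miR-99b-5p differ by A1C, U11A, U16C and U21C. The miR-125 pair, 24 and 22 bases long, shares its first 13 bases. A read with an error at such a base could be counted for the relative, and how the authors' counting treated such reads is not given in the sources used here.

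The hairpin of mir-10a is shown because its entry was counted apart from the mature arm, which is in capitals (bases 22 to 44 of 110, RefSeq GRCm38.p6, chr11:96317165-96317274, plus strand).
mir-10a: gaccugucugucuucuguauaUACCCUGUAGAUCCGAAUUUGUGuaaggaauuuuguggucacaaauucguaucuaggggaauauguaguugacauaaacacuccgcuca

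In GRCm38, with genes from GENCODE, the mature arm of Mir10a lies at chr11:96317186-96317208, 1059 bp from the homeobox gene Hoxb4. The arm of Mir10b lies at chr2:74726074-74726096, in introns of annotated Hoxd3 and Hoxd4 transcripts. The other members are encoded in 3 pairs. Mir99b and Mir125a lie on chromosome 17, 601 bases apart, within an intron and an exon of Spaca6. Mir99a and Mir125b-2 lie on chromosome 16, 47317 bases apart, in introns of the noncoding host gene Mir99ahg. Mir100 and Mir125b-1 lie on chromosome 9, 50481 bases apart, in an intron of the noncoding gene 3110039I08Rik. Since miR-125b-5p is identical from both of its genes, its counts cannot be assigned to either.

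Library totals ranged from 531261 to 3389206 counts (median 887415), of which 8992 to 96496 were miRNA counts (median 20379). Levels are given as CPM, an entry's counts relative to the tested miRNA counts of its library after scaling with TMM, edgeR's trimmed mean of M-values. In KlHET control replicate 2, miR-8117 alone took 43440 counts, 65.7% of the miRNA counts, and the TMM factor was 0.0346, so its CPM values rest on few reads: 29 of miR-10a-5p, 16 of miR-10b-5p and 3 of miR-100-5p. WT control replicate 5 was the deepest library and had 116380 CPM of miR-128-3p, a neuronal miRNA, against at most 25544 CPM elsewhere. KlHET control replicate 8 held 20662 CPM of mir-133a-2, a muscle miRNA precursor, against at most 1023 CPM elsewhere. No pair of libraries within a group agreed within counting noise, with a chi-square of at least 7.89 per degree of freedom.

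miR-10a-5p and miR-10b-5p were much lower in EVs of KlHET mice than of WT mice, with and without NMES. miR-10a-5p had a median of 6497 CPM in KlHET NMES libraries (lowest 4275, highest 9315) and 30918 CPM in WT NMES libraries (lowest 22204, highest 45539). Every KlHET NMES library was below every WT NMES library. The difference was -2.24 on the log2 scale (SE 0.27, edgeR quasi-likelihood test, Benjamini-Hochberg adjusted p = 2.33e-07), or 4.72-fold lower.

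In control mice, miR-10a-5p had a median of 7531 CPM in KlHET libraries (lowest 4534, highest 13580) and 39966 CPM in WT libraries (lowest 23552, highest 52261). The ranges were again apart, and the 2 highest KlHET values, 13580 and 13419 CPM, were those of replicates 8 and 2. The difference was -2.21 (SE 0.27, edgeR adjusted p = 6.42e-07), or 4.62-fold lower. With single libraries left out it ranged from -2.36 to -2.04, and it was -2.48 without both KlHET control replicate 2 and WT control replicate 5.

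miR-10b-5p, encoded in another Hox cluster on another chromosome, had a median of 5989 CPM in KlHET NMES libraries (lowest 2797, highest 10968) and 36989 CPM in WT NMES libraries (lowest 26244, highest 53951). The 8 KlHET libraries were all below the 6 WT libraries. The difference was -2.60 (SE 0.27, edgeR adjusted p = 2.26e-08), or 6.07-fold lower. In control mice the medians were 7911 CPM in KlHET libraries (lowest 5691, highest 9833) and 34335 CPM in WT libraries (lowest 24763, highest 41254). These ranges did not overlap either. The difference was -2.10 (SE 0.27, edgeR adjusted p = 8.40e-07), or 4.29-fold lower. It ranged from -2.15 to -1.96 with single libraries left out and was -2.22 without both of those libraries.

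By p-value these were the first 2 of the 129 entries in each genotype comparison, miR-10b-5p first in NMES mice and miR-10a-5p first in control mice. These ranks are no independent finding, because the members were chosen with earlier results of these data known. The comparisons share no libraries, but 1 fit over all 28 libraries gave the scaling and the spread of both. The J and A library names divide the genotypes in both, so the comparisons are not fully independent. Together, miR-10a-5p and miR-10b-5p made up a median of 1.32% of all miRNA counts in KlHET NMES libraries and 9.31% in WT NMES libraries. In control mice their share was 1.64% in KlHET libraries and 7.14% in WT libraries. In a bulk EV preparation, fewer vesicles that carry a miRNA and fewer copies per vesicle cannot be told apart.

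**Figure D1:**
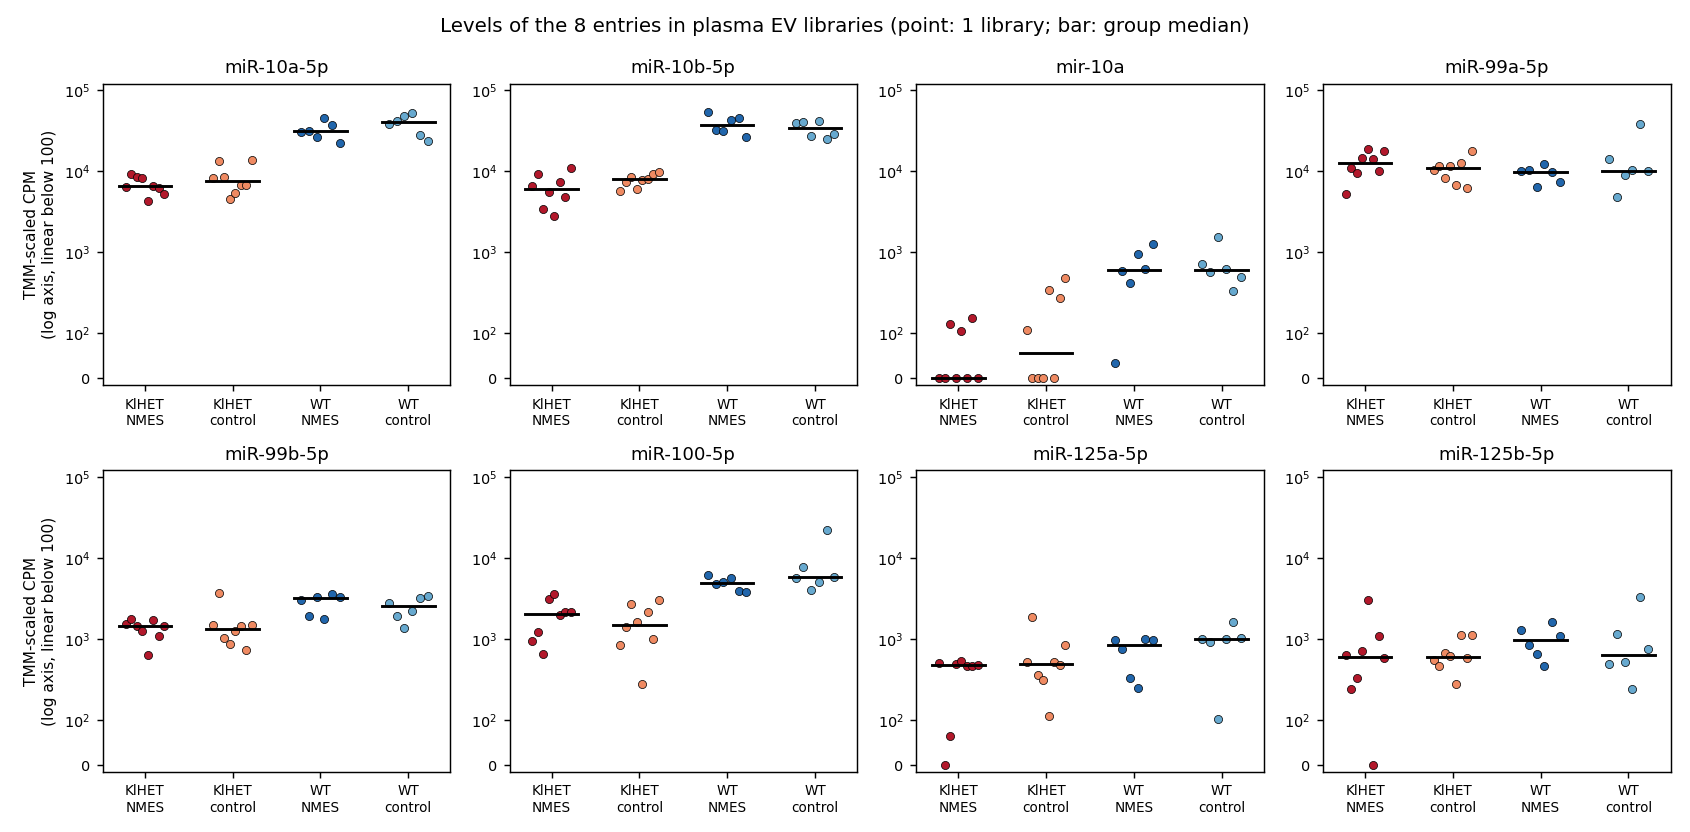
Levels of the 8 members in each of 28 libraries, as TMM-scaled CPM on a log axis that is linear below 100, with 1 point per library and a bar at the group median. Points of miR-10a-5p, miR-10b-5p and miR-100-5p in the 8 KlHET NMES and 8 KlHET control libraries all sit below those of the 6 WT libraries under the same treatment.

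The precursor entry mir-10a had few reads. It had 6 reads in all over the 8 KlHET NMES libraries, 5 of which had 0, and 105 over the 6 WT NMES libraries, with 1 to 42 in each. A count of 0 allowed up to 3 reads, equal to 113 to 173 CPM in those 5 libraries, against a WT NMES median of 609 CPM. WT NMES replicate 1, with 1 read and 33.3 CPM, lay among the KlHET values. In control mice mir-10a had 47 reads over 8 KlHET libraries, 30 of them in replicate 8 and 0 in 4 libraries, and 135 over 6 WT libraries, with 10 to 30 in each. The groups overlapped in reads through KlHET control replicate 8. mir-10a reached the minimum of reads for testing only through WT libraries, so its genotype values are given as reads, with no test, and it is left out of the counts of members called between genotypes.

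The genotype differences of the miR-99/100 group were unequal. miR-100-5p, encoded on chromosome 9, had a median of 2040 CPM in KlHET NMES libraries (lowest 650.3, highest 3536) and 4923 CPM in WT NMES libraries (lowest 3800, highest 6094). The ranges did not overlap, but the difference of -1.30 (SE 0.42, edgeR adjusted p = 0.0685) did not pass over 129 entries. It passed with some single libraries left out (adjusted p 0.0349 to 0.162 over these fits). In control mice miR-100-5p had a median of 1502 CPM in KlHET libraries (lowest 282, highest 2988) and 5768 CPM in WT libraries (lowest 3987, highest 21966). Every KlHET value was below every WT value, and the difference of -2.36 (SE 0.43, edgeR adjusted p = 2.09e-04) passed. Without WT control replicate 5, the library at 21966 CPM, it was -1.78 (adjusted p = 0.00282).

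miR-99a-5p, which differs from miR-100-5p at 1 base, was not called in either genotype comparison. Its median was 12572 CPM in KlHET NMES libraries (lowest 5167, highest 18578) and 9845 CPM in WT NMES libraries (lowest 6336, highest 12224), a difference of 0.43 (SE 0.35, edgeR adjusted p = 0.547). In control mice the medians were 10947 CPM in KlHET libraries (lowest 6251, highest 17864) and 10154 CPM in WT libraries (lowest 4792, highest 38080). The groups overlapped widely under both treatments. The fitted difference in control mice, -0.43 (SE 0.34, edgeR adjusted p = 0.356), had the opposite sign to that of the medians, and without WT control replicate 5 it was 0.18.

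miR-99b-5p, encoded beside miR-125a on chromosome 17, had a median of 1431 CPM in KlHET NMES libraries (lowest 633, highest 1756) and 3178 CPM in WT NMES libraries (lowest 1766, highest 3580). Those ranges were apart by a narrow margin, and the difference of -1.05 (SE 0.31, edgeR adjusted p = 0.0558) did not pass. In control mice it had a median of 1337 CPM in KlHET libraries (lowest 721, highest 3702) and 2524 CPM in WT libraries (lowest 1346, highest 3342). There the difference was -0.84 (SE 0.32, edgeR adjusted p = 0.0511). The highest KlHET value, 3702 CPM, stood for 8 reads in replicate 2, and without that library the difference was -1.15 (adjusted p = 0.00667).

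The miR-125 pair was the least abundant of the mature members, with medians of 11.5 reads per library for miR-125a-5p and 14.5 for miR-125b-5p. miR-125a-5p had a median of 471 CPM in KlHET NMES libraries (lowest 0, highest 528) and 849 CPM in WT NMES libraries (lowest 247, highest 1008), a difference of -0.92 (SE 0.58, edgeR adjusted p = 0.388). In control mice the medians were 497 CPM in KlHET and 998 CPM in WT libraries, with a difference of -0.81 (SE 0.58, edgeR adjusted p = 0.291). miR-125b-5p had medians of 605 CPM in KlHET NMES and 959 CPM in WT NMES libraries, and of 602 CPM in KlHET control and 634 CPM in WT control libraries. Its differences, -0.26 (SE 0.62) in NMES mice and -0.65 (SE 0.62) in control mice, were close to or within 1 standard error.

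Among the 7 mature members, 2 were called lower in KlHET than in WT under NMES (miR-10a-5p and miR-10b-5p), where 3.1% of all 129 entries were. Shares and counts over all entries include mir-10a where the fit called it, as it did here. With DESeq2, and also with both standing-apart libraries left out, 4 of the 7 were called there, with miR-99b-5p and miR-100-5p added. The libraries left out, KlHET control replicate 2 and WT control replicate 5, are not part of the NMES comparison. Over all 129 entries DESeq2 called 7 lower and 10 higher, and with both libraries left out edgeR called 9 of 133 in either direction. In control mice 3 were called lower (miR-10a-5p, miR-10b-5p and miR-100-5p), where 16.3% of all entries were. Over all entries edgeR called 0 higher and 4 lower in NMES mice and 11 higher and 21 lower in control mice. Another scaling shifted this split, to 5 higher and 3 lower in NMES mice with TMMwsp, a form of TMM for data with many zeros, and to 6 higher and 30 lower in control mice with TMM over all RNA classes. The median log2 difference of the 7 was -1.05 in NMES mice and -0.84 in control mice, beside 0.032 and -0.21 over all 129 entries. CPM ranges lay wholly below those of WT for 4 members under NMES (miR-10a-5p, miR-10b-5p, miR-99b-5p and miR-100-5p), and these were the only such entries, 3.1% of all. In control mice this held for 3 members (miR-10a-5p, miR-10b-5p and miR-100-5p), with 3.88% of all entries, the others being let-7f-5p and let-7b-5p.

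**Figure D2:**
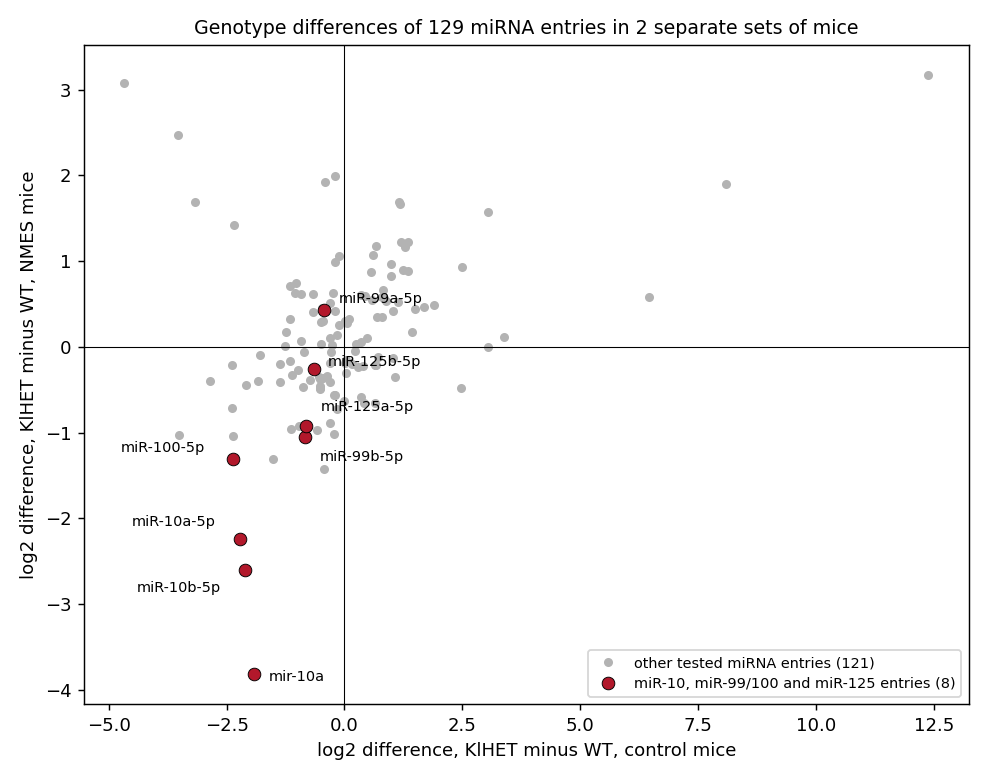
Log2 difference between KlHET and WT libraries of 129 miRNA entries, in control mice on the horizontal axis and in NMES mice on the vertical axis, with the 8 members in red and the other 121 entries in gray. mir-10a reached the minimum of reads only through WT libraries, so its red point is not to be read as a tested difference. miR-10a-5p and miR-10b-5p lie at -2.10 to -2.60 on both axes, and miR-99a-5p lies at -0.43 and 0.43.

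Ratios between relatives within a library do not depend on scaling between libraries. They were compared for 5 pairs in 4 comparisons, with two-sided exact permutation tests adjusted over all 20. The ratio of miR-100-5p to miR-99a-5p had a median of 0.163 in KlHET NMES libraries (lowest 0.0722, highest 0.222) and 0.491 in WT NMES libraries (lowest 0.398, highest 0.806). The ranges were apart, and the difference of mean log2 ratios was -1.83 (exact permutation p = 0.000666, the smallest that 8 against 6 libraries can give, adjusted p = 0.00666). In control mice the median ratio was 0.153 in KlHET libraries (lowest 0.0453, highest 0.328) and 0.535 in WT libraries (lowest 0.402, highest 1.61). That difference was -2.16 (exact permutation p = 0.000666, adjusted p = 0.00666). The ratio was lower in 8 of 8 KlHET libraries than in any WT library under each treatment. In KlHET control replicate 2 it rests on 3 and 25 reads.

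The ratio of miR-99b-5p to miR-99a-5p had a median of 0.119 in KlHET NMES libraries (lowest 0.0355, highest 0.298) and 0.339 in WT NMES libraries (lowest 0.146, highest 0.523). The ranges overlapped, and the difference was -1.42 (exact permutation p = 0.00733, adjusted p = 0.0488). It did not pass when any of 12 single libraries was left out (adjusted p up to 0.114). In control mice the difference was -0.62 (exact permutation p = 0.14, adjusted p = 0.559).

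The ratio of miR-10b-5p to miR-10a-5p stayed near 1. Its median was 0.879 in KlHET NMES and 1.18 in WT NMES libraries, a difference of -0.45 (exact permutation p = 0.17, adjusted p = 0.566). In control mice it was 1.10 in KlHET and 0.930 in WT libraries, a difference of 0.15 (exact permutation p = 0.562, adjusted p = 0.754). Between single libraries it ranged between 0.402 and 2.11, both in KlHET NMES mice. For the 2 ratios with miR-125a-5p, miR-125a-5p to miR-125b-5p and miR-99b-5p to miR-125a-5p, no comparison passed.

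**Figure D3:**
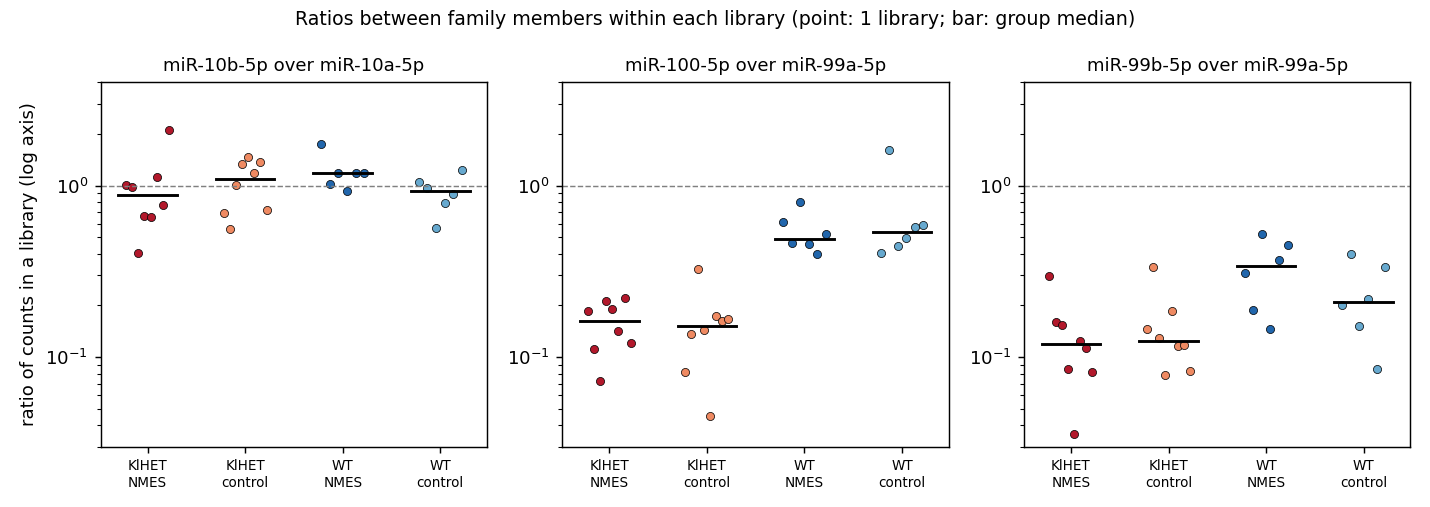
Ratio of counts of 2 relatives within each library, on a log axis, with 1 point per library, a bar at the group median and a dashed line at 1. The ratio of miR-100-5p to miR-99a-5p is at most 0.328 in KlHET libraries and at least 0.398 in WT libraries, while the ratio of miR-10b-5p to miR-10a-5p scatters around 1 in all 4 groups.

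The order of members differed between genotypes. In WT libraries the miR-10 pair led, with ranks 5 to 8 by median among the 129 entries, followed by miR-99a-5p, miR-100-5p and miR-99b-5p. In KlHET libraries miR-99a-5p led, at rank 14 under NMES and 17 in control mice, and the miR-10 pair stood at ranks 24 to 28. In KlHET control libraries its lead over miR-10b-5p was within the spread of their ratio, with miR-99a-5p higher in 5 of 8. As a description, with the pair of miRNAs chosen after their values were seen, miR-10a-5p had a median of 0.590 reads per read of miR-99a-5p in KlHET NMES and 3.40 in WT NMES libraries. In control mice it had 0.788 in KlHET and 3.87 in WT libraries. miR-10a-5p and miR-10b-5p did not differ beyond the spread of their ratio in any group, nor did miR-100-5p and miR-99b-5p in KlHET mice. miR-125a-5p and miR-125b-5p were within the spread of their ratio except in WT NMES libraries, where miR-125b-5p was higher in 6 of 6.

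NMES was not followed by a detectable change in any member. In KlHET mice 0 of 8 members were called between NMES and control libraries, where 4.65% of all 129 entries were, and 1 (mir-10a) had an unadjusted p under 0.05. In WT mice 0 of 8 were called, where 0% of all entries were, and 0 members had an unadjusted p under 0.05. Over both genotypes 0 of 8 were called, again beside 0% of all entries. For the difference in NMES effect between genotypes 0 of 8 were called, beside 2.33% of all. DESeq2 called 0 members in each of these 4 comparisons. Over all 129 entries edgeR gave an unadjusted p under 0.05 for 14 in KlHET mice, 22 in WT mice, 22 over both genotypes and 21 for the difference in effect, and DESeq2 called 1, 4, 0 and 1 entries in that order.

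Values for the miR-10 pair were small in both genotypes. For miR-10a-5p the difference between NMES and control was -0.29 (SE 0.25, edgeR adjusted p = 0.966) in KlHET mice and -0.26 (SE 0.28, edgeR adjusted p = 0.701) in WT mice. For miR-10b-5p it was -0.32 (SE 0.25, edgeR adjusted p = 0.895) in KlHET mice and 0.18 (SE 0.28, edgeR adjusted p = 0.812) in WT mice.

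In WT mice miR-100-5p differed by -0.79 (SE 0.45, edgeR adjusted p = 0.393) and miR-99a-5p by -0.63 (SE 0.37, edgeR adjusted p = 0.409) between NMES and control libraries. Without WT control replicate 5 these were -0.12 and 0.077, so both values rest on that control library. In KlHET mice the differences were 0.27 (SE 0.40) for miR-100-5p and 0.24 (SE 0.32) for miR-99a-5p. miR-99b-5p, miR-125a-5p and miR-125b-5p differed by -0.037, -0.52 and 0.26 in KlHET mice and by 0.18, -0.41 and -0.13 in WT mice, all within 1 standard error. mir-10a differed by -2.03 in KlHET mice (SE 0.87, edgeR adjusted p = 0.29), a value that rests on 6 reads in NMES and 47 in control libraries, and it was -1.43 without KlHET control replicate 8.

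**Figure D4:**
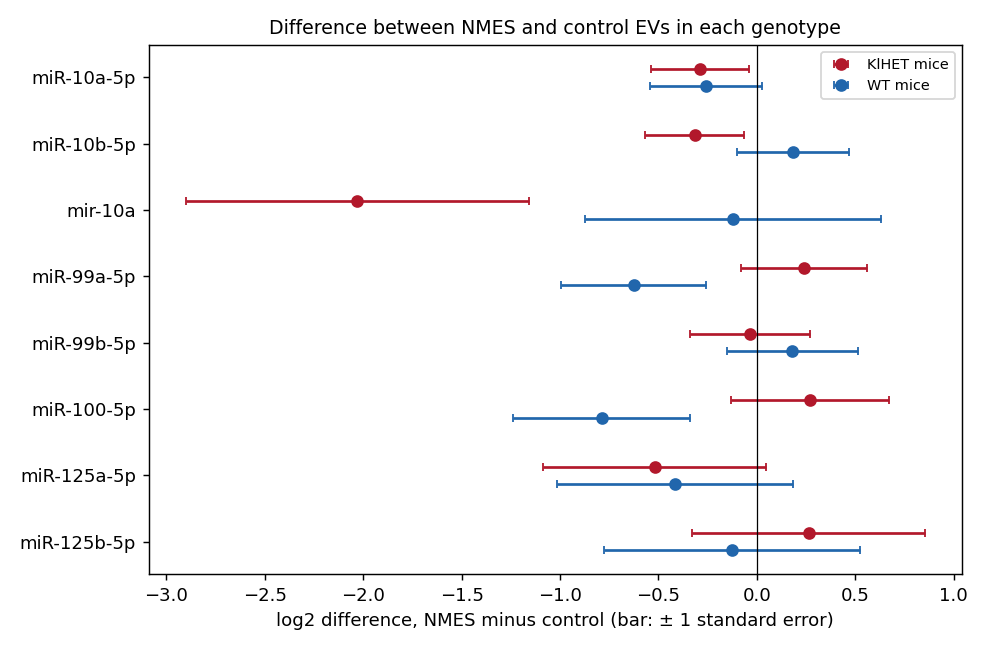
Log2 difference between NMES and control libraries of each member, in KlHET mice (red, upper of each pair) and in WT mice (blue), with bars of 1 standard error. For miR-10a-5p and miR-10b-5p the 4 values lie between -0.32 and 0.18, and mir-10a in KlHET mice, at -2.03, has the widest distance from 0.

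Other entries of the same loci were sparse. Of 15 other arms and precursors of these hairpins, 13 were in the table, 10 had reads and 0 could be tested, mir-10b having the most with 85 reads in 18 libraries. Of 4 other miRNAs of the Hox clusters (miR-196a-5p, miR-196b-5p, miR-615-3p and miR-615-5p), 0 could be tested, and miR-615-3p had the most with 124 reads. Whether the Hox-cluster miRNAs as a group were lower in KlHET EVs was therefore not measurable beyond the miR-10 pair.

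The let-7 miRNAs encoded in the miR-99/100 clusters, known as regulators of developmental timing, were all tested. In NMES mice 0 of 3 were called between genotypes, where 3.1% of all 129 entries were. In control mice 3 of 3 were called lower in KlHET libraries, where 16.3% of all entries were. let-7c-5p, encoded beside miR-99a, had a median of 15138 CPM in KlHET control and 20791 CPM in WT control libraries, a difference of -0.92 (SE 0.25, edgeR adjusted p = 0.0103). let-7a-5p differed by -1.24 (SE 0.38) and let-7e-5p by -2.38 (SE 0.71). The level of let-7e-5p was low, with a median of 228 CPM in KlHET control and 703 CPM in WT control libraries. WT control replicate 5 held the highest WT control level of each, up to 63243 CPM for let-7c-5p. Without that library 0 of 3 were called, at -0.45 for let-7c-5p (edgeR adjusted p = 0.128), -0.58 for let-7a-5p (adjusted p = 0.196) and -0.79 for let-7e-5p (adjusted p = 0.387). let-7a-5p was not called without WT control replicate 3 either.

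Another miRNA with the CCCUGAG seed, miR-351-5p, was tested and is no member. It had a median of 1607 CPM in KlHET control and 350 CPM in WT control libraries, a difference of 1.68 (SE 0.64, edgeR adjusted p = 0.0507, 0.0176 to 0.0899 with single libraries left out) that did not pass and was opposite in sign to that of the miR-125 pair.

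Among tested miRNAs outside the 8 members, those most alike in pattern were the ones with the smallest SD of their log2 ratio to a member over the 28 libraries. For miR-10a-5p and miR-10b-5p this was miR-143-3p, known from smooth muscle, with an SD of 0.912 and 0.907, beside an SD of 1.21 and 1.28 for the members' own log2 levels. mir-140 was next for both. Between members it was smaller than this for 2 pairs, 0.522 for miR-10a-5p with miR-10b-5p and 0.896 for miR-10a-5p with miR-99b-5p. For every other member paired with miR-10a-5p or miR-10b-5p it was larger than with miR-143-3p. These SDs ran from 0.934 (miR-10a-5p with miR-100-5p) to 1.55 (miR-10b-5p with miR-125b-5p). miR-143-3p was also nearest to miR-99b-5p (SD 0.449), and let-7c-5p was nearest to its neighbor in the genome, miR-99a-5p (SD 0.530). let-7f-5p was nearest to miR-100-5p (SD 0.854) and to mir-10a (SD 1.26), miR-30d-5p to miR-125a-5p (SD 0.941) and miR-30c-5p to miR-125b-5p (SD 0.968). These libraries share their scaling and the standing-apart libraries, so the values describe likeness only.

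miRNAs known from cells that release EVs into plasma were read from the same libraries. Of the lists, 4 of 5 erythroid, 2 of 6 leukocyte and platelet, 1 of 2 liver and 2 of 4 muscle entries were tested. So were 2 of 3 neuron, 1 of 2 endothelium and 3 of 5 epithelium entries. In NMES mice 0 of the tested entries were called between genotypes, where 3.1% of all 129 entries were. With so few tested, 0 calls does not show that levels were equal. With both standing-apart libraries left out, miR-9-5p of neuron was called higher in KlHET NMES than in WT NMES libraries (3.06, edgeR adjusted p = 0.0395), against 3.08 (adjusted p = 0.156) over all libraries, and its highest level there was 17522 CPM in KlHET NMES replicate 5. In control mice miR-126a-3p of endothelium was lower in KlHET libraries by 0.87 on the log2 scale, with summed endothelial levels of 2203 to 4281 CPM in KlHET control and 4245 to 9048 CPM in WT control libraries. The same held in control mice for miR-122-5p of liver (-1.52, with 4877 to 37480 CPM in KlHET and 17698 to 202238 CPM in WT libraries, with miR-122-3p included). miR-9-5p (-4.66) and miR-128-3p (-3.17) of neuron were also lower, with a summed level of 845 to 4553 CPM in KlHET and 1700 to 158399 CPM in WT control libraries. The highest of these was WT control replicate 5, and without it neither was called, at -0.51 for miR-9-5p (edgeR adjusted p = 0.763) and 0.26 for miR-128-3p (adjusted p = 0.777). miR-126a-3p was not called in 2 of the 28 fits that leave out 1 library (without WT control replicates 4 or 6), and miR-122-5p in 5 of them (without WT control replicates 1 or 4 or KlHET control replicates 1, 4 or 7). miR-192-5p of epithelium was higher (1.23), with summed epithelial levels of 4018 to 14752 CPM in KlHET control and 3511 to 7041 CPM in WT control libraries. It was the only 1 of 3 tested epithelium entries called, and miR-200a-3p and miR-194-5p were not. miR-192-5p was not called with both standing-apart libraries left out (1.01, edgeR adjusted p = 0.0622). Of the erythroid, leukocyte and muscle lists, 0 tested members were called in control mice, where 24.8% of all entries were called in either direction. The part of these cell sources in the genotype differences was not tested.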

How the data were processed

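Small RNA was extracted from plasma EVs isolated with a column kit and sequenced single-end on a NextSeq 2000 after NEBNext small RNA library preparation. The authors aligned reads with STAR 2.5.3a to mm10 and assigned them to annotated small RNAs with COMPSRA. The deposited values are whole-number read counts, not normalized. The submitters' processing notes also name DESeq2 1.42.1. Annotation sources, adapter trimming and the handling of multi-mapping reads are not given in the sources used here. Sample columns left out numbered 0.

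Counts of 1240 miRNA entries were filtered by group with filterByExpr, scaled with TMM and fitted in edgeR 4.0.16 (R 4.3.3, limma 3.58.1) with 1 mean per group over all 28 libraries. Quasi-likelihood tests were adjusted by Benjamini-Hochberg over the 129 entries tested and called under 0.05. Standard errors were derived from the log2 difference and its F statistic. Ratios used counts plus 0.5 within each library and two-sided exact permutation tests in scipy 1.17.1 (Python 3.11.15). The fit was tested on simulated data. A miRNA was named where it was a member, belonged to a fixed companion or marker list, or was among the 3 entries most alike to a member. Alternatives were DESeq2 1.42.0, other scalings and filters, mature arms only, a robust fit, only the groups compared, and libraries left out. Intervals that a count of 0 allows cover counting error only. Members, lists and tests were chosen with earlier results of these data known, so p-values are not independent of that choice.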

Additional observations from a re-analysis of the deposited data

Results flagged for a closer look

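Within each group, the highest or lowest library was compared with its nearest neighbor for each member by Dixon's criterion, over 32 groups of 6 or 8 libraries, and 7 values, from 4 libraries, stood out where chance gives about 1 in 20 groups. WT control replicate 5 stood above its group in miR-99a-5p (38080 CPM, others at most 14056), miR-100-5p (21966 CPM, others at most 7736) and miR-125b-5p (3297 CPM, others at most 1155). KlHET control replicate 2 stood above its group in miR-99b-5p (3702 CPM, 8 reads) and miR-125a-5p (1851 CPM, 4 reads). mir-10a was highest in WT control replicate 3, at 1553 CPM, and miR-125b-5p in KlHET NMES replicate 5, at 3061 CPM. No library stood out in miR-10a-5p or miR-10b-5p. The criterion cannot flag 2 libraries that lie together, such as KlHET control replicates 8 and 2 in miR-10a-5p. These were at 13580 and 13419 CPM, with the next library of the group at 8423 CPM.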

How the results depend on the processing

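miR-10a-5p and miR-10b-5p were called lower in KlHET than in WT libraries under every alternative and with each of the 28 libraries left out. In NMES mice miR-10a-5p ranged from -2.51 to -1.89 and miR-10b-5p from -2.83 to -2.22 over the alternatives, and in control mice from -2.77 to -1.94 and from -2.68 to -1.86. Of the 7 mature members, 2 were called in NMES mice in the main fit, and 2 with mature arms only. The counts over all entries given below include mir-10a where the fit called it. With both standing-apart libraries left out 4 were called (miR-99b-5p and miR-100-5p added), where 9 of 133 entries were. Both are control libraries, outside the NMES comparison, and enter it only through the shared fit. The differences there were -1.05 for miR-99b-5p and -1.35 for miR-100-5p, beside -1.05 and -1.30 over all libraries. DESeq2 also called 4, where 17 of 129 entries were called. With single libraries left out 2 to 3 of the 7 were called. In control mice the main fit called 3 of the 7. DESeq2 called 4 (miR-99b-5p added), where 33 of 129 entries were called. TMM over all RNA classes gave the same 4, where 36 of 132 entries were called. With single libraries left out 3 to 4 were called. Scaling moved the median of all entries by up to 0.38 in NMES mice (TMMwsp) and by -0.76 in control mice (TMM over all RNA classes). Over all 129 entries edgeR called 4 in NMES mice between genotypes and DESeq2 17. Between NMES and control these counts were 6 and 1 in KlHET mice and 0 and 4 in WT mice. The cause of these changes was not tested.

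Signs turned only for values not called. Scaling by miRNA total gave 0.039 for miR-10a-5p, 0.25 for mir-10a and 0.34 for miR-125b-5p between NMES and control in WT mice, and 0.057 for miR-10a-5p and 0.44 for miR-99b-5p in KlHET mice. TMM over all RNA classes gave -0.46 for miR-99b-5p and -0.25 for miR-10b-5p in WT mice and 0.049 for miR-99b-5p in KlHET mice. miR-99b-5p in KlHET mice was 0.091 with DESeq2, 0.078 with TMMwsp, 0.060 with only the groups compared and 0.27 with both standing-apart libraries left out. That last setting gave 0.0086 for miR-99a-5p and 0.70 for miR-125b-5p in WT mice, and 0.084 and 0.11 for them between genotypes in control mice. In WT mice mir-10a was 0.012 with no filter and miR-125b-5p 0.033 with at least 10 counts in 6 libraries. Between genotypes in NMES mice miR-125b-5p was 0.34 with TMMwsp, and the log2 ratio of miR-99b-5p to miR-125a-5p was -0.017 with a count of 1 added.

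With single libraries left out, the NMES difference in WT mice ranged from -0.65 to 0.077 for miR-99a-5p, -0.27 to 0.35 for mir-10a and -0.29 to 0.77 for miR-125b-5p. In KlHET mice it ranged from -0.15 to 0.24 for miR-99b-5p and -0.27 to 0.62 for miR-125b-5p. The genotype difference in control mice ranged from -0.52 to 0.18 for miR-99a-5p and -0.77 to 0.15 for miR-125b-5p. The log2 ratio of miR-99b-5p to miR-99a-5p in NMES mice ranged from -1.63 to -1.18. That of miR-100-5p to miR-99a-5p between NMES and control ranged from -0.096 to 0.31 in KlHET and -0.32 to 0.087 in WT mice. The ratio of miR-125a-5p to miR-125b-5p ranged from -1.04 to 0.035 between NMES and control in KlHET mice and from -0.91 to 0.17 between genotypes in NMES mice. The ratio of miR-99b-5p to miR-125a-5p ranged from -0.43 to 0.42 between genotypes in NMES mice and from -0.48 to 0.13 in control mice. No paired analysis was run, since each library came from a different mouse and the labels name no pairs. The replicate numbers used here follow the order of the samples in each group and are not from the labels. The least-read members were mir-10a and the miR-125 pair, with medians of 4, 11.5 and 14.5 reads per library.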
